A study of Mus musculus with 31 samples.

Results

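The collagen genes are the 43 rows, of 38283 genes listed in each deposited table, whose symbol has the form of a collagen chain (Col, a type number, the letter a and a chain number). By chain type, 11 are fibrillar (types I, II, III, V, XI, XXIV and XXVII), 6 are type IV chains of basement membranes and 26 are of other types. All 43 are annotated as protein coding. RNA was measured by RNA-seq, as FPKM (fragments mapped to a gene, scaled to its transcript length and to the mapped fragments of the library), in cells of the C57BL/6 mouse pancreas at postnatal day 2. Cells were sorted by flow cytometry into a YFP-positive mesenchymal and a YFP-negative non-mesenchymal fraction. Values were at hand for 21 of the 31 samples of the series, and the other 10 were not analysed here.

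In the H19DMD model, made to overexpress Igf2 in mesenchyme per the series' design text, mutants are H19DMDfl/+; Nkx3.2+/Cre and controls H19DMD+/+; Nkx3.2+/Cre. Both fractions of this model were used, each with 3 control and 4 mutant libraries. In the Igf2 deletion model, mutants are Igf2+/fl; Nkx3.2Cre/+ and controls Igf2+/+; Nkx3.2Cre/+, and the non-mesenchymal fraction was used, with 4 control and 3 mutant libraries. Controls and mutants alike carry the Nkx3.2 Cre, which is active in the mesenchyme of the gut and pancreas, so the mutations concern the YFP-positive fraction, and the YFP-negative fraction holds the remaining cells of the organ. The labels do not say that libraries of a group came from separate animals, so p-values measure the spread between these libraries, which may be technical. Each model has a table of its own, so tests were made within a table only, and model and table cannot be told apart.

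Collagens are triple-helical proteins, and each gene encodes one chain of a trimer. Fibrillar types I, III and V form the cross-linked fibrils that give connective tissue its strength, and type IV forms the sheet-like network of basement membranes under epithelia and around vessels. The other types decorate fibrils (FACIT collagens), form beaded filaments or hexagonal networks, anchor basement membranes, carry proteoglycan chains (multiplexins) or span the plasma membrane. In the pancreas, fibroblast-like mesenchymal cells are the best-known source of fibrillar collagen, and acinar, ductal and islet cells rest on basement membranes.

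Features above 0 numbered 17476 to 19352 per library in the H19DMD model and 19199 to 20918 in the Igf2 model. The sequencing depth is unknown, since only FPKM were given. The targeted locus differed without overlap in the mesenchymal fraction of the H19DMD model: Igf2 spanned 3648 to 4024 FPKM over the 3 controls and 6162 to 7923 FPKM over the 4 mutants, and H19 2437 to 2454 and 565 to 835 FPKM. H19 was called lower (log2 fold change -1.82, limma, adjusted p = 0.0458), and the Igf2 change of 0.87 was not called (limma, unadjusted p = 0.0042, adjusted p = 0.927). In the non-mesenchymal fraction of the H19DMD model, Igf2 spanned 45.2 to 53.2 FPKM in controls and 45.4 to 156.7 FPKM in mutants, with overlap. In the Igf2 model, non-mesenchymal Igf2 values of 71.5 to 144 FPKM in controls and 25 to 147 FPKM in mutants overlapped. The mesenchymal cells that carry this deletion were not analysed here, and it was not checked in them. As a check of the sort in controls of the H19DMD model, 10 mesenchymal markers summed to 3029.6 to 4136 FPKM in the YFP-positive and 153 to 184 FPKM in the YFP-negative fraction, and 8 acinar markers to 625 to 1393 and 39118 to 104034 FPKM. Vim, a gene that many cell types express, made up 67.1 to 88% of the YFP-negative sums. The mesenchymal regulator Nkx3-2 was too low to serve as a check, listed at 0 in all 7 non-mesenchymal and 2 of the 7 mesenchymal libraries of the H19DMD model and at most 1.99 FPKM.

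The make-up of the collagen RNA differed between the sorted fractions. Of the 43 collagens, 35 had a mean of at least 1 FPKM in mesenchymal controls and 36 in mesenchymal mutants. In non-mesenchymal cells the numbers were 20 and 23 in controls and mutants of the H19DMD model, and 31 and 33 in those of the Igf2 model. Over all groups, 40 collagens reached that level in at least 1 group. Col2a1, the cartilage fibril chain, Col4a4, a type IV chain of specialised basement membranes, and Col19a1, a FACIT chain, stayed below it in all 6 groups.

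**Figure D1:**
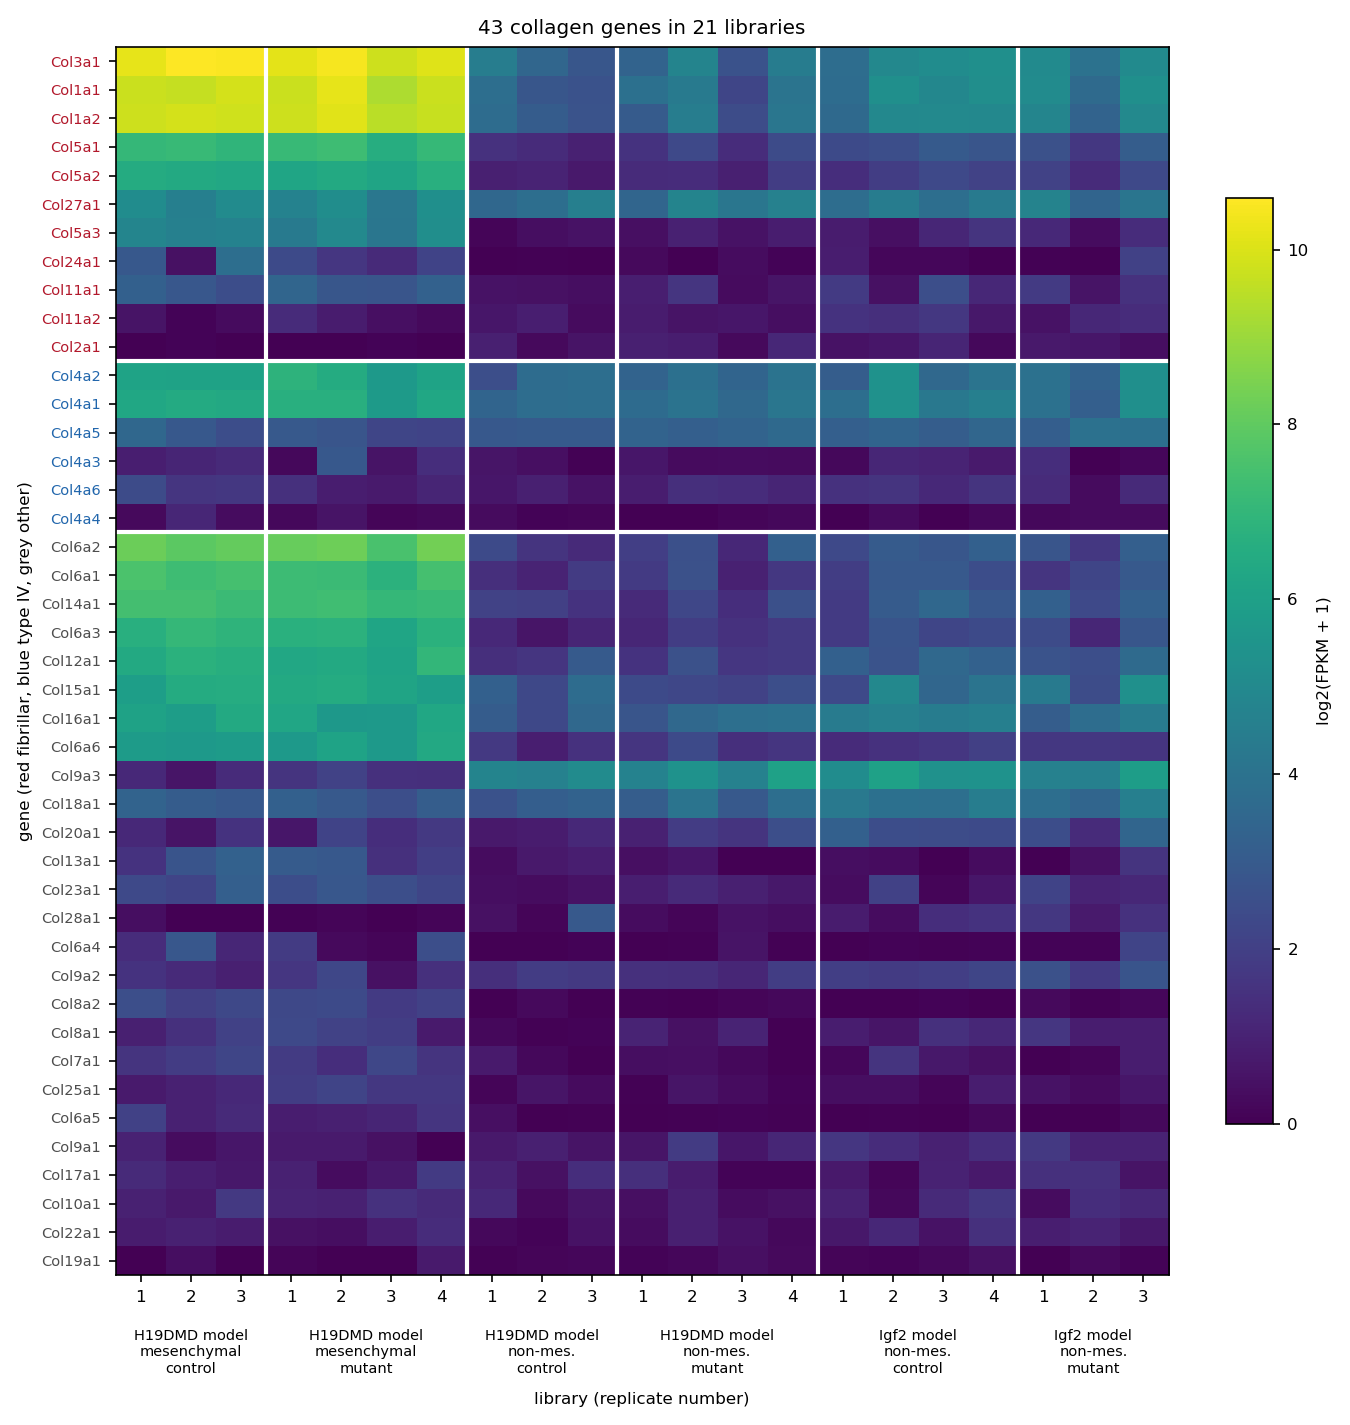
Level of each of the 43 collagens, as log2(FPKM + 1) by colour, in the 21 libraries, with genes in rows by class and libraries in columns by group. Col1a1, Col1a2, Col3a1 and the chains Col6a1, Col6a2 and Col6a3 are brightest in the 7 mesenchymal libraries, whereas Col9a3 is brighter in each of the 14 non-mesenchymal libraries than in any mesenchymal one.

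Summed over all collagens, mesenchymal controls held 4472, 4811 and 4867 FPKM and mesenchymal mutants 4382, 5248, 3317 and 4379 FPKM. The sums were 155, 131 and 174 FPKM in non-mesenchymal controls and 142, 253, 132 and 265 FPKM in non-mesenchymal mutants of the H19DMD model. Libraries of the Igf2 model held 209, 408, 307 and 346 FPKM in controls and 290.4, 166 and 442 FPKM in mutants. Every mesenchymal library lay above every non-mesenchymal one, and in each of the 3 mutant comparisons the groups overlapped. Fibrillar chains made up 70.6 to 75.8% of the collagen FPKM of mesenchymal libraries, 24.7 to 40.8% in non-mesenchymal libraries of the H19DMD model and 29.2 to 45.9% in those of the Igf2 model. The share of type IV chains went the other way, with 3.28 to 5.1%, 14.4 to 25.4% and 12.7 to 23.2%. The other types held 20.2 to 25.9%, 43 to 55.9% and 40.3 to 55.8%. These ranges of the mesenchymal libraries did not overlap those of the non-mesenchymal libraries for any of the 3 classes. A share can rise only where another falls, and in FPKM all classes were higher in mesenchymal libraries. Type IV chains summed to 111 to 224, 22.3 to 44.9 and 31.3 to 94.7 FPKM, in the same order. The other types summed to 778 to 1134, 56.3 to 132 and 82.4 to 212 FPKM.

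**Figure D2:**
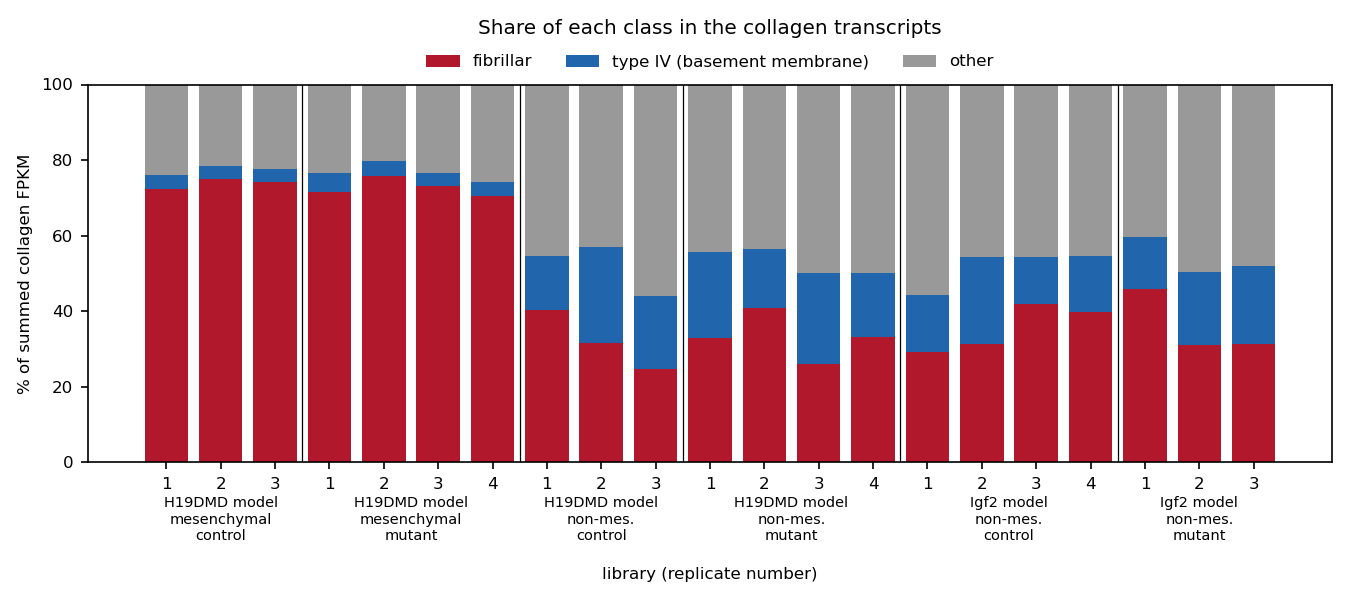
Share of the summed collagen FPKM, in percent, taken by fibrillar, type IV and other collagens, as a stacked bar for each of the 21 libraries by group. Fibrillar chains take 70.6 to 75.8% in the 7 mesenchymal libraries and at most 45.9% in the 14 non-mesenchymal libraries.

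Type I and type III chains led the mesenchymal libraries. Col1a1 and Col1a2 encode both chains of type I collagen, the most abundant fibril protein, and Col3a1 the single chain of type III, which shares its fibrils. Together these 3 genes held 63.2 to 69.8% of the collagen FPKM in the mesenchymal libraries and 9.73 to 32.3% in the non-mesenchymal ones. In all 4 non-mesenchymal groups the collagen with the highest mean was instead Col9a3, a chain of type IX collagen, a FACIT type best known from cartilage.

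The promoter windows of a few members are shown for genes of unlike standing in the sorted fractions: Col3a1 had the highest mean of all collagens in mesenchymal cells, Col15a1 was higher there by a smaller step, and Col27a1 had the highest mean of the fibrillar chains in both non-mesenchymal groups of the H19DMD model. Each window holds the 250 bases before the RefSeq start on the plus strand (GRCm38.p6), at chr1:45311288-45311537, chr4:47207762-47208011 and chr4:63215162-63215411. None overlaps an annotated exon, and the Col27a1 window lies in an intron of a longer GENCODE model of that gene. Capitals mark a match to TATAAA or GGGCGG.
Col3a1: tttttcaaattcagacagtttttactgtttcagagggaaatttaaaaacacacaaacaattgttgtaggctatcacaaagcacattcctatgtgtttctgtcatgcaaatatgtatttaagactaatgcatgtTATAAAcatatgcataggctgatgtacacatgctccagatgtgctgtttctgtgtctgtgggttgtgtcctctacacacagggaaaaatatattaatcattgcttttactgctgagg
Col15a1: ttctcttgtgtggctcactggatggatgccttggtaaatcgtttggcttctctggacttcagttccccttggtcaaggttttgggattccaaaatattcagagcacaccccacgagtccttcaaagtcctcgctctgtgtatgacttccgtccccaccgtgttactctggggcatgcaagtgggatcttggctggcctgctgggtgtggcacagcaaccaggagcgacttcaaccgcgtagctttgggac
Col27a1: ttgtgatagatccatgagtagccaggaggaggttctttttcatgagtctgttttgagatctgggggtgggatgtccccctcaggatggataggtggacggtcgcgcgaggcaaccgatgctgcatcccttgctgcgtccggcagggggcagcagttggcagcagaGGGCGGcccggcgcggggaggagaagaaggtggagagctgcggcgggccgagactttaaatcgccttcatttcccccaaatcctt
The Col3a1 window is 35.2% G or C and has TATAAA 117 to 112 bases before the start. The Col15a1 window is 53.6% G or C and has no match, and the Col27a1 window is 59.6% G or C and has GGGCGG 85 to 80 bases before the start. Windows were found for 35 collagens (38 windows, since some genes have several starts). Besides these hexamers, the pentamer CCAAT was searched, each on both strands, and no motif contains another. GGGCGG was present in 22 of the 38 collagen windows (57.9%) and in 32.7% of the 32851 windows of all genes. TATAAA was present in 5 (13.2%) against 12.4%, and CCAAT in 13 (34.2%) against 33.8%. A match is a description of these letters and not evidence of a bound site.

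The comparison of fractions asks which collagens differ between sorted mesenchymal and non-mesenchymal cells, and the H19DMD model allows it in controls and in mutants. In controls, 33 of the 43 collagens had a mean of at least 1 FPKM and were tested, 22 were higher in mesenchymal cells, 1 was lower and 10 were not called (limma, adjusted p under 0.05). Of all 16732 genes tested, 12.4% were called higher and 10.3% lower. The median log2 difference was 2.43 over the collagens tested and 0.08 over all genes. In mutants, 23 of 33 tested were higher and 2 lower, beside 13.5% and 15.1% of 16767 genes, with medians of 2.25 and -0.03. In bulk fractions, fewer cells of a type and less RNA per cell cannot be told apart. Log2 differences are mesenchymal minus non-mesenchymal values of log2(FPKM + 1), so for genes of low FPKM they fall short of the change in FPKM itself. Gene coordinates are those of GENCODE M21 on GRCm38.

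Among fibrillar chains, 7 of 9 tested were higher in mesenchymal controls and 8 of 9 in mesenchymal mutants, and none was lower. The shares of all genes were 12.4% higher and 10.3% lower in controls, and 13.5% and 15.1% in mutants. Col1a1 (chromosome 11, 94936224 to 94953042, plus strand) stood at 865, 816 and 968 FPKM in mesenchymal controls and 13.3, 6.18 and 5.32 FPKM in non-mesenchymal controls. In mutants the mesenchymal values were 846, 1160.2, 629 and 867 FPKM and the non-mesenchymal ones 13.9, 19.2, 3.69 and 15.7 FPKM. The lowest mesenchymal library lay far above the highest non-mesenchymal one in both genotypes. The log2 difference was 6.67 (SE 0.33) in controls (limma, adjusted p = 0.00014) and 6.11 (SE 0.45) in mutants (limma, adjusted p = 2.86e-05).

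Col1a2 (chromosome 6, 4504814 to 4541544, plus strand) kept close to its partner chain. Its mesenchymal values were 887, 968 and 893 FPKM in controls and 888, 1114, 715 and 831 FPKM in mutants. In non-mesenchymal cells it stood at 12.3, 7.47 and 5.53 FPKM in controls and 7.24, 21.7, 4.55 and 17 FPKM in mutants. The fractions did not overlap, with log2 differences of 6.67 (SE 0.28) and 6.23 (SE 0.44) (limma, adjusted p = 9.31e-05 and 2.33e-05). Col3a1 (chromosome 1, 45311538 to 45349706, plus strand) stood at 1185, 1539.8 and 1477 FPKM in mesenchymal controls and 1124, 1387, 874 and 1069 FPKM in mesenchymal mutants. Its non-mesenchymal values were 21.7, 10.3 and 6.12 FPKM and 9.27, 26.4, 5.32 and 21.1 FPKM. The difference of 6.83 (SE 0.43) in controls was the largest of the 33 collagens tested there, and that of 6.29 (SE 0.45) the largest of the 33 in mutants (limma, adjusted p = 0.000271 and 2.53e-05).

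Col5a1 and Col5a2 encode the chains of type V, which starts and limits the growth of type I fibrils. Col5a1 stood at 132, 141 and 119 FPKM in mesenchymal controls, 138, 157, 96 and 137 FPKM in mesenchymal mutants, 1.82, 1.48 and 0.976 FPKM in non-mesenchymal controls and 1.94, 4.01, 1.53 and 4.29 FPKM in non-mesenchymal mutants. For Col5a2 the values, in the same order, were 91.1, 84.2 and 81.1 FPKM, 74.3, 86.4, 72.4 and 100.1 FPKM, 0.923, 1.08 and 0.638 FPKM and 1.43, 1.55, 0.883 and 2.77 FPKM. No non-mesenchymal library reached a mesenchymal one for either chain. Log2 differences were 5.78 (SE 0.20) and 5.13 (SE 0.29) for Col5a1 and 5.53 (SE 0.17) and 5.02 (SE 0.23) for Col5a2 in controls and mutants (limma, adjusted p = 7.92e-05 and 8.23e-06, and 6.85e-05 and 3.62e-06). The minor chain Col5a3 had means of 25.2 ± 1.92 and 0.291 ± 0.157 FPKM in the fractions of controls and 25.7 ± 9.24 and 0.631 ± 0.292 FPKM in those of mutants (SD). Col11a1, a chain of the related type XI, had means of 6.53 ± 1.95 and 0.372 ± 0.0513 FPKM in controls and 7.75 ± 1.99 and 0.926 ± 0.831 FPKM in mutants (SD). Both were higher in mesenchymal cells, by 4.35 and 2.43 in controls (limma, adjusted p = 0.000103 and 0.00194).

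Col27a1, a fibrillar chain known from cartilage and developing epithelia, had the smallest log2 difference between the fractions among the fibrillar genes tested. It stood at 35, 22.5 and 33.8 FPKM in mesenchymal controls and 10.7, 13.1 and 23 FPKM in non-mesenchymal controls. The mutants gave 25.1, 35.4, 17.2 and 37.6 FPKM and 10.1, 26.2, 16.7 and 24 FPKM, and the fractions overlapped in both genotypes. It was not called, with log2 differences of 0.96 (95% interval 0.15 to 1.78) in controls and 0.58 (-0.23 to 1.39) in mutants (limma, adjusted p = 0.0953 and 0.264). Col24a1, a fibrillar chain of bone and cornea, varied from 0.408 to 13 FPKM among the mesenchymal controls and from 1.38 to 4.26 FPKM among the mutants. It was called in mutants (1.67, limma, adjusted p = 0.00541) and not in controls (2.37, limma, adjusted p = 0.104). Col11a2, another type XI chain, and Col2a1 had means below 1 FPKM in all 4 groups of this model and were not tested.

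**Figure D3:**
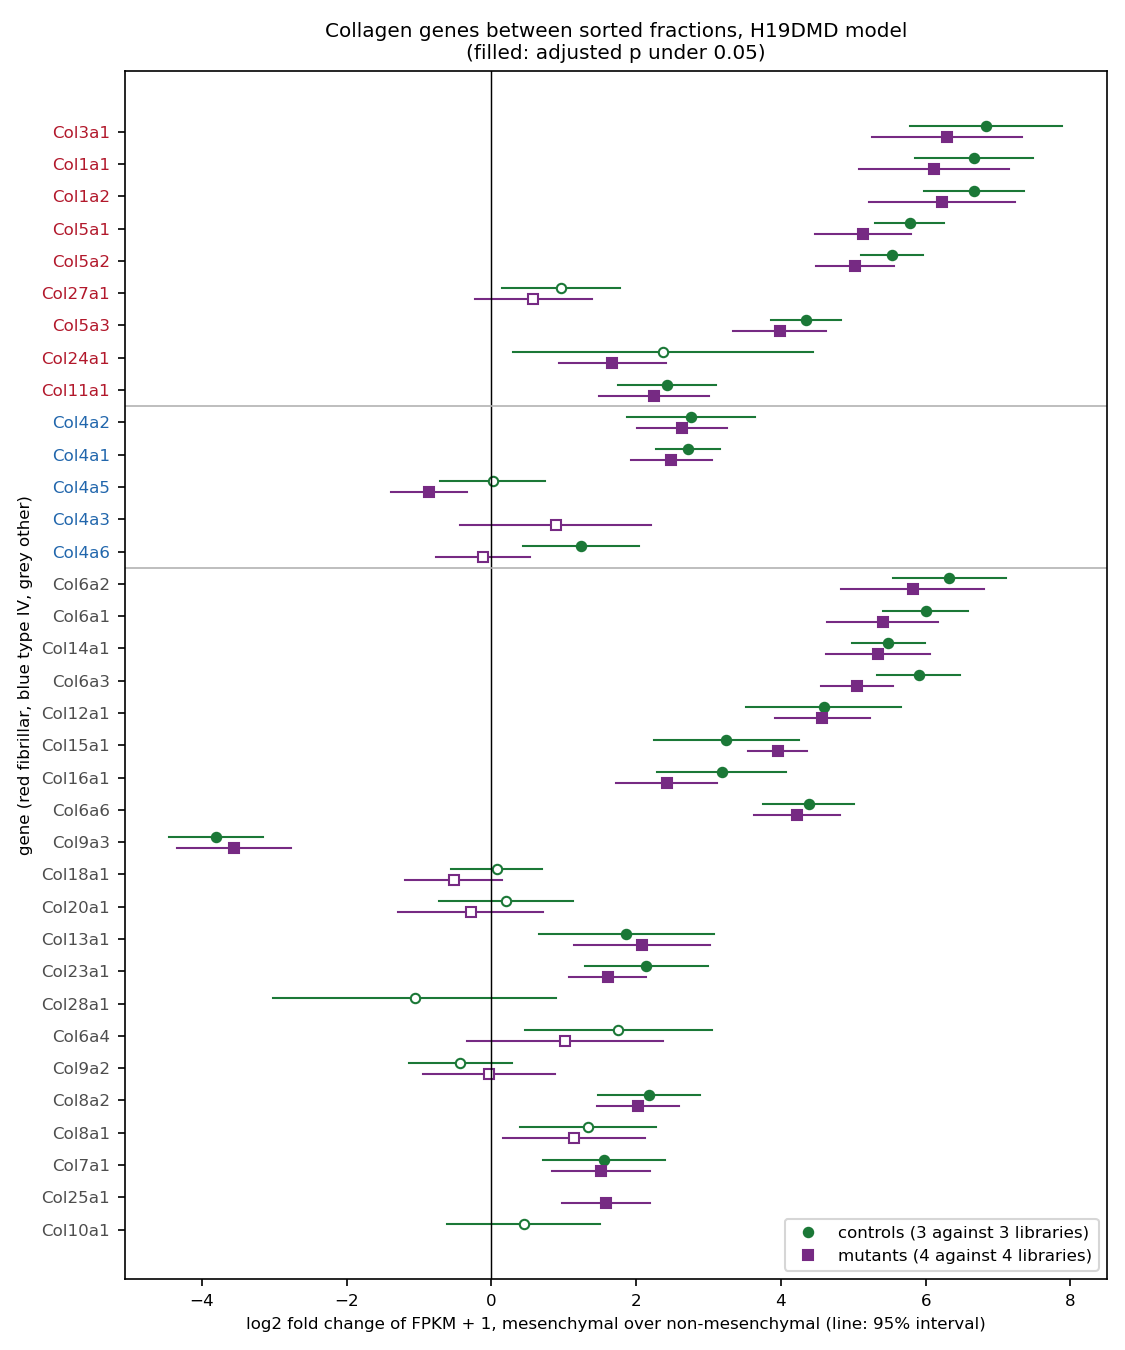
Log2 difference (mesenchymal minus non-mesenchymal, on log2(FPKM + 1)) of each collagen tested, in controls (3 against 3 libraries) and mutants (4 against 4), with 95% intervals from limma and filled points where the adjusted p is under 0.05. Col3a1 lies farthest to the right at 6.83 in controls and Col9a3 farthest to the left at -3.80.

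Of the type IV genes, the widespread pair Col4a1 and Col4a2 was higher in mesenchymal cells in both genotypes, and the pair on chromosome X was not uniform. Col4a1 (chromosome 8, 11198423 to 11312826, minus strand) stood at 78.7, 88.9 and 83.4 FPKM in mesenchymal controls, 101, 101, 53.2 and 77.8 FPKM in mesenchymal mutants, 9.69, 12.8 and 13.4 FPKM in non-mesenchymal controls and 11.9, 15.3, 11 and 16.8 FPKM in non-mesenchymal mutants. Col4a2 (chromosome 8, 11312805 to 11449287, plus strand) had, in the same order, 69.8, 68.3 and 67.6 FPKM, 113, 91, 52.7 and 69.4 FPKM, 4.85, 12.2 and 13 FPKM and 9.47, 14, 9.61 and 15.2 FPKM. For both genes every mesenchymal library lay above every non-mesenchymal one. Log2 differences in controls were 2.72 (SE 0.18) and 2.76 (SE 0.36) (limma, adjusted p = 0.000318 and 0.00334), and in mutants 2.49 (SE 0.25) and 2.63 (SE 0.27) (limma, adjusted p = 0.000141 and 0.000179). These genes start head to head, 21 bases apart, with 22 exon bases in common, the deposited table gives them a single locus, and the use of strand is not stated, so reads from the shared bases cannot be assigned to either.

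Endothelial cells are a known source of type IV collagen, and 3 of the 7 endothelial markers were higher in mesenchymal controls and none lower, beside 12.4% and 10.3% of all genes. In controls, their sum was 112 to 144 FPKM in the mesenchymal and 21.6 to 65.3 FPKM in the non-mesenchymal fraction. Against the same 12.4%, all 8 pericyte and smooth muscle markers were higher, with sums of 542 to 864 against 10.5 to 17.4 FPKM, as were all 4 mesothelial markers, with 120.2 to 264 against 1.67 to 7.91 FPKM. The part of each of these cell types in the collagen differences was not tested.

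Col4a5 and Col4a6 encode chains of the basement membranes of smooth muscle and some epithelia. Col4a5 stood at 10.6, 6.49 and 4.61 FPKM in mesenchymal controls and 6.48, 6.92 and 6.9 FPKM in non-mesenchymal controls, with overlap. In mutants it was at 6.68, 5.97, 3.66 and 3.42 FPKM in mesenchymal and 9.33, 8.23, 9.21 and 11.4 FPKM in non-mesenchymal cells, with no overlap. The difference was 0.02 (-0.71 to 0.75) in controls, not called, and -0.86 (SE 0.23) in mutants, where Col4a5 was lower in mesenchymal cells (limma, adjusted p = 0.0243). That call was lost with the replicate block and in 5 of the 8 fits that left out 1 library (mesenchymal mutant 3 or 4, or non-mesenchymal mutant 1, 3 or 4), with differences of -1.0 to -0.73 over the 8. Col4a6 stood at 4.37, 2.13 and 2.27 FPKM in mesenchymal and 0.544, 0.894 and 0.413 FPKM in non-mesenchymal controls. In mutants it was at 1.8, 0.776, 0.722 and 1.12 FPKM and 0.792, 1.67, 1.51 and 1.11 FPKM. It was higher in mesenchymal controls by 1.24 (SE 0.33) (limma, adjusted p = 0.0423) and was not called in mutants, at -0.12 (-0.77 to 0.53). The kidney and cochlea chain Col4a3 had means of 1.11 and 0.308 FPKM in the fractions of controls, and its mesenchymal mutants ranged from 0.188 to 6.5 FPKM.

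Among the other collagens, 12 of 20 tested were higher in mesenchymal controls and 13 of 19 in mesenchymal mutants, and Col9a3 was lower in both. Of all genes, 12.4% were higher and 10.3% lower in controls, and 13.5% and 15.1% in mutants. The type VI chains form beaded filaments that surround cells. Col6a1 stood at 191, 156 and 175 FPKM in mesenchymal controls, 153, 146, 111 and 174 FPKM in mesenchymal mutants, 1.68, 1.1 and 2.58 FPKM in non-mesenchymal controls and 2.49, 5.13, 0.938 and 2.33 FPKM in non-mesenchymal mutants. Col6a2 had, in that order, 298, 239.8 and 271 FPKM, 279, 306, 184 and 318 FPKM, 4.26, 2.06 and 1.37 FPKM and 2.91, 5.08, 1.23 and 8.43 FPKM. Col6a3 had 102, 132 and 118 FPKM, 103, 109.5, 74.8 and 108 FPKM, 1.34, 0.505 and 1.15 FPKM and 1.21, 2.76, 1.81 and 2.4 FPKM. The fractions were far apart for all 3 chains. Log2 differences in controls were 6.0 (SE 0.24), 6.32 (SE 0.32) and 5.9 (SE 0.23) (limma, adjusted p = 9.19e-05, 0.000143 and 9.19e-05), and in mutants 5.4, 5.82 and 5.05. Of the chains that can replace Col6a3, Col6a6 had a mean of 53.5 ± 3.16 FPKM in mesenchymal and 1.68 ± 0.747 FPKM in non-mesenchymal controls (SD), whereas Col6a4 and Col6a5 had 3.05 and 1.84 FPKM in mesenchymal controls.

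FACIT collagens sit on the surface of fibrils. Col14a1 and Col12a1, which bind type I fibrils, had means of 164 ± 12.6 and 96.9 ± 11 FPKM in mesenchymal controls and 2.72 ± 0.723 and 3.59 ± 2.96 FPKM in non-mesenchymal controls (SD). They were higher in mesenchymal cells by 5.48 and 4.59 in controls and by 5.34 and 4.57 in mutants (limma, adjusted p = 8.33e-05 and 0.00101 in controls). Col16a1, a FACIT chain found near basement membranes, had 71.2 ± 13.7 and 7.39 ± 3.56 FPKM and was higher by 3.18 (limma, adjusted p = 0.00199). Col20a1, whose role is little known, had 1.25 and 0.899 FPKM and was not called. Col22a1, a FACIT chain of tissue junctions, stayed under 1 FPKM in mean in the 4 groups of this model.

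Col9a3 (chromosome 2, 180597790 to 180622189, plus strand) was the exception. In non-mesenchymal cells it stood at 26.7, 24 and 33.7 FPKM in controls and 24.8, 40.8, 24 and 65.7 FPKM in mutants of the H19DMD model. Mesenchymal controls had 1.33, 0.537 and 1.47 FPKM and mesenchymal mutants 1.99, 3.26, 1.78 and 1.66 FPKM. In the Igf2 model, non-mesenchymal controls had 34, 66.2, 39.4 and 41.2 FPKM and mutants 24, 23.8 and 57.8 FPKM. It ranked first among the 43 collagens in 13 of the 14 non-mesenchymal libraries and the fifth in the remaining one, Igf2 mutant 1, and ranked 27 to 36 in the mesenchymal libraries. Its share of the collagen FPKM was 8.26 to 24.8% in non-mesenchymal and 0.0112 to 0.0621% in mesenchymal libraries. Col9a3 was lower in mesenchymal cells, with log2 differences of -3.8 (SE 0.26) in controls and -3.56 (SE 0.34) in mutants (limma, adjusted p = 0.000366 and 0.00012). The other type IX chains did not share its level: in the 14 non-mesenchymal libraries Col9a1 was at most 2.57 FPKM and Col9a2 between 1.22 and 5.67 FPKM. The table's Col9a3 locus extends beyond the annotated gene, and 6.07% of its exon bases are shared with the protein-coding gene Tcfl5 on the opposite strand, whose part in the value was not tested.

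Col15a1 and Col18a1 are multiplexins of vascular and epithelial basement membranes. Col15a1 stood at 61.1, 89.4 and 92.8 FPKM in mesenchymal controls, 85.4, 91.5, 71.3 and 60.9 FPKM in mesenchymal mutants, 8.56, 3.85 and 12.4 FPKM in non-mesenchymal controls and 4.17, 3.84, 3.26 and 4.83 FPKM in non-mesenchymal mutants. Mesenchymal libraries were all higher, by 3.24 (SE 0.41) in controls and 3.95 (SE 0.18) in mutants (limma, adjusted p = 0.00292 and 3.38e-06). Col18a1, the precursor of endostatin, had, in the same order, 9.46, 7.44 and 6.49 FPKM, 8.46, 6.71, 4.82 and 7.76 FPKM, 5.3, 7.9 and 9.08 FPKM and 7.68, 15.6, 6.77 and 13.1 FPKM. Its fractions overlapped, with differences of 0.08 (-0.55 to 0.70) in controls and -0.52 (-1.2 to 0.15) in mutants, and the value in controls turned to -0.03 with median-ratio scaling.

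The remaining chains had lower levels, and of the 9 described here 7 were tested in controls and 4 were higher in mesenchymal cells, beside 12.4% of all genes. The network chains Col8a1 and Col8a2, known from vessel walls and cornea, had means of 1.91 and 3.9 FPKM in mesenchymal and 0.101 and 0.0717 FPKM in non-mesenchymal controls. Col8a2 was called (2.18, limma, adjusted p = 0.0035) and Col8a1 was not (1.33, limma, adjusted p = 0.0566). Col7a1, of the fibrils that anchor epithelia, had 2.77 and 0.296 FPKM and was higher by 1.55 (limma, adjusted p = 0.0239). The transmembrane chains Col13a1 and Col23a1 had 5.42 and 5.22 FPKM against 0.589 and 0.342 FPKM, and both were higher (limma, adjusted p = 0.0426 and 0.00748). Col25a1, another transmembrane chain, was not tested in controls, where its mean was under the minimum, and was higher in mesenchymal mutants, by 1.58 (limma, adjusted p = 0.00261). Col17a1, the transmembrane collagen of hemidesmosomes, stood at 1.4, 0.867 and 0.619 FPKM in mesenchymal controls and 1.05, 0.386 and 1.59 FPKM in non-mesenchymal controls. In mutants it was at 0.979, 0.294, 0.624 and 2.46 FPKM and 1.7, 0.762, 0.0729 and 0.0644 FPKM. Its mean over the libraries of either comparison was under 1 FPKM, so it was not tested, and its values overlapped throughout. Col10a1, the growth-plate network chain, and Col28a1, a peripheral-nerve collagen, had 1.32 and 0.0996 FPKM in mesenchymal and 0.686 and 2.43 FPKM in non-mesenchymal controls, and neither was called. A single library carried the Col28a1 mean, whose range among non-mesenchymal controls was 0.0916 to 6.8 FPKM.

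With 3 against 3 libraries an exact permutation test cannot go below p = 0.1, and Col9a3 and each of the 11 collagens called in controls among the 13 named in every comparison (Col1a1, Col1a2, Col3a1, Col5a1, Col5a2, Col4a1, Col4a2, Col6a1, Col6a2, Col6a3, Col15a1, Col17a1 and Col18a1) reached that value. With 4 against 4 libraries the smallest exact permutation p is 0.0286, which Col1a1, Col3a1, Col9a3, Col15a1 and Col4a5 reached in mutants.

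The enzymes that modify, fold, export and cross-link collagen showed the same side. Of a list of 43 symbols of such genes, 36 were found and 33 were tested in controls, 25 were higher in mesenchymal cells, 1 was lower and 7 were not called (12.4% and 10.3% of all genes were higher and lower), with a median log2 difference of 2.22 beside 0.08 over all genes. In mutants 23 were higher and 2 lower of 33, beside 13.5% and 15.1% of all genes. Serpinh1, the collagen chaperone of the endoplasmic reticulum, stood at 106, 136 and 131 FPKM in mesenchymal controls and 10.1, 14.8 and 16.3 FPKM in non-mesenchymal controls. P4ha1, a prolyl hydroxylase subunit, had 15.4, 17.4 and 12.2 FPKM and 2.82, 1.8 and 2.67 FPKM, and the lysyl hydroxylase Plod2 114, 132 and 121 FPKM and 19.8, 35.4 and 15.7 FPKM. The fractions did not overlap for these 3 genes, with differences of 3.11 (SE 0.23), 2.22 (SE 0.23) and 2.4 (SE 0.31) (limma, adjusted p = 0.00044, 0.00135 and 0.00317).

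Outside the cell, Bmp1 trims the C-terminal propeptide, Pcolce enhances that step and Lox cross-links the fibril. Bmp1 stood at 31.7, 34.2 and 42.7 FPKM in mesenchymal controls and 4.48, 5.16 and 7.59 FPKM in non-mesenchymal controls. Pcolce had 199, 192 and 154 FPKM and 3.21, 5.84 and 6.78 FPKM, and Lox 59.9, 77.1 and 66.8 FPKM and 1.83, 0.952 and 1.01 FPKM. All 3 were higher in each mesenchymal library, by 2.48 (SE 0.24), 4.9 (SE 0.28) and 4.94 (SE 0.22) (limma, adjusted p = 0.00103, 0.00019 and 0.000102). The gene that was lower in both genotypes, named after its values were seen, was Mia2, a cargo receptor at the exit sites of the endoplasmic reticulum, with means of 0.18 and 14.8 FPKM in controls (-3.73, limma, adjusted p = 0.000187). Its relative Ctage5 was the other gene called lower in mutants (-0.97, limma, adjusted p = 0.0392), with values that overlapped between the fractions. That call was lost with the replicate block, with median-ratio scaling, with all groups in one fit and in 7 of the 8 fits that left out 1 library, all but the one without mesenchymal mutant 3. In controls Ctage5 was not called (-1.35, limma, adjusted p = 0.0833), and the block, the scaling and the single fit each called it there.

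Of 10 collagen receptors, 9 were tested in controls, and 5 were higher in mesenchymal cells and 1 lower, beside 12.4% and 10.3% of all genes. Ddr1 and Ddr2 are the receptor tyrosine kinases for collagen, known from epithelial and mesenchymal cells respectively. Ddr2 stood at 38.5, 42.8 and 41.8 FPKM in mesenchymal controls and 0.383, 0.244 and 0.090 FPKM in non-mesenchymal controls, and Ddr1 at 6.34, 5.28 and 6.02 FPKM and 7.04, 10.2 and 8.34 FPKM. Ddr2 was higher by 5.09 (SE 0.18) (limma, adjusted p = 8.33e-05), whereas Ddr1 was not called in controls (-0.46) and was lower in mesenchymal mutants (-1.55, limma, adjusted p = 0.0235). In mutants Ddr1 stood at 5.36, 4.18, 1.74 and 2.28 FPKM and 11.8, 14.8, 5.01 and 16.8 FPKM, with overlap, and Ddr2 at 31.2, 40.1, 38.9 and 51.8 FPKM and 0.261, 0.397, 0.253 and 1.43 FPKM. The Ddr1 call in mutants was lost without mesenchymal mutant 3 or 4 or non-mesenchymal mutant 1, 2 or 4. Mrc2, which takes up collagen for degradation, was higher by 5.24 in controls (limma, adjusted p = 0.000102). The leukocyte receptor Lair1, also named after its values were seen, was the gene called lower in controls, with 0.119, 0 and 0 FPKM in mesenchymal and 1.83, 6.65 and 1.75 FPKM in non-mesenchymal cells (-1.91, limma, adjusted p = 0.0355). The call was lost with the replicate block and without mesenchymal control 1, 2 or 3, and without non-mesenchymal control 2 the gene was under the minimum for testing. In the same comparison 5 of 6 leukocyte markers were lower, with sums of 17.2 to 31.9 against 306 to 516 FPKM, and their part in the Lair1 value was not tested there.

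The first mutant comparison asks whether collagen RNA differs between H19DMD mutants and controls in the mesenchymal cells that carry the mutation. None of 36 collagens tested was called (limma, adjusted p under 0.05), beside 0.0694% of 15856 genes. At an unadjusted p under 0.05 there were 2, beside 4.76% of all genes. The median log2 fold change, mutant minus control, was -0.06 over the collagens and -0.07 over all genes. Of the 36, 11 were above 0 and 25 below it, beside 42.7% of all genes above 0. With median-ratio scaling 20 were above 0 and 16 below it, and the medians were 0.02 over the collagens and 0.00 over all genes.

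Library values of the named chains in this comparison are those given above, and controls and mutants overlapped for all 13 collagens named in every comparison. The log2 fold changes were -0.04 (-0.60 to 0.51) for Col1a1, -0.34 (-0.85 to 0.17) for Col3a1 and -0.01 (-0.48 to 0.47) for Col5a1. For Col4a1, Col6a1, Col15a1 and Col18a1 these were -0.05 (-0.64 to 0.54), -0.27 (-0.72 to 0.19), -0.06 (-0.59 to 0.47) and -0.16 (-0.72 to 0.41). All 7 intervals include 0, and the exact permutation p for Col3a1 was 0.143. Col1a1, Col5a1, Col4a1 and Col15a1 turned to small positive values with median-ratio scaling. Mutant 3 held the lowest of the 7 values for 20 of the 36 collagens.

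The members with the largest changes in each class had low FPKM. Col25a1, a transmembrane collagen of neurons and muscle, stood at 0.714, 0.954 and 1.34 FPKM in mesenchymal controls and 2.75, 3.54, 2.26 and 2.25 FPKM in mutants, with no overlap. Its log2 fold change was 0.88 (0.22 to 1.55), with an unadjusted p of 0.016 and an adjusted p of 0.927 (limma), and the exact permutation p was 0.0286, the smallest possible. Col4a6 lay lower in every mutant than in every control, with a log2 fold change of -0.88 (-1.69 to -0.07), an unadjusted p of 0.0368 and an adjusted p of 0.927 (limma). Its exact permutation p was 0.0571. Col9a3 was also without overlap, higher in mutants. Of all genes tested, 1.62% were without overlap and higher and 3.77% without overlap and lower. The other class extremes were Col11a1 at 0.22, Col24a1 at -0.54, Col4a3 at 0.21 and Col6a4 at -0.60, none past an unadjusted p of 0.05. Single libraries decided several of these values: Col24a1 was 0.16 without control 3 and -1.49 without control 2, Col11a1 0.04 without control 3, and Col6a4 -0.05 without control 2. Col4a3 was 0.55 without mutant 1.

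Sums of cell type markers are given beside these values. The 4 mesothelial markers summed to 120.2 to 264 FPKM in controls and 83.4 to 131 FPKM in mutants, and 2 of them were lower at an unadjusted p under 0.05, beside 4.76% of all genes in either direction. The 10 mesenchymal markers summed to 3029.6 to 4136 and 3015 to 3915 FPKM, and the 7 endothelial markers to 112 to 144 and 99.7 to 189 FPKM. Ductal markers summed to 34.8 to 80.2 and 20.6 to 36.5 FPKM, cell cycle markers to 148 to 167 and 94.1 to 155 FPKM and leukocyte markers to 17.2 to 31.9 and 26.7 to 70.7 FPKM, with none of the members tested at an unadjusted p under 0.05. The 8 pericyte and smooth muscle markers summed to 836, 542 and 864 FPKM in controls 1 to 3 and 815, 512, 468 and 220.4 FPKM in mutants 1 to 4. Among them the smooth muscle actin Acta2 stood at 501, 257 and 362 FPKM and 333, 159, 111 and 34.7 FPKM, and the smooth muscle myosin Myh11 at 119.7, 48.2 and 173 FPKM and 129, 64.8, 47.2 and 11.3 FPKM. Both overlapped between the genotypes, were lowest in mutant 4 and had no call (-1.58 and -1.09, limma, unadjusted p = 0.0608 and 0.223), and none of the 8 had an unadjusted p under 0.05. The part of any of these cell types in the Col4a5, Col4a6 and Col25a1 values was not tested.

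**Figure D4:**
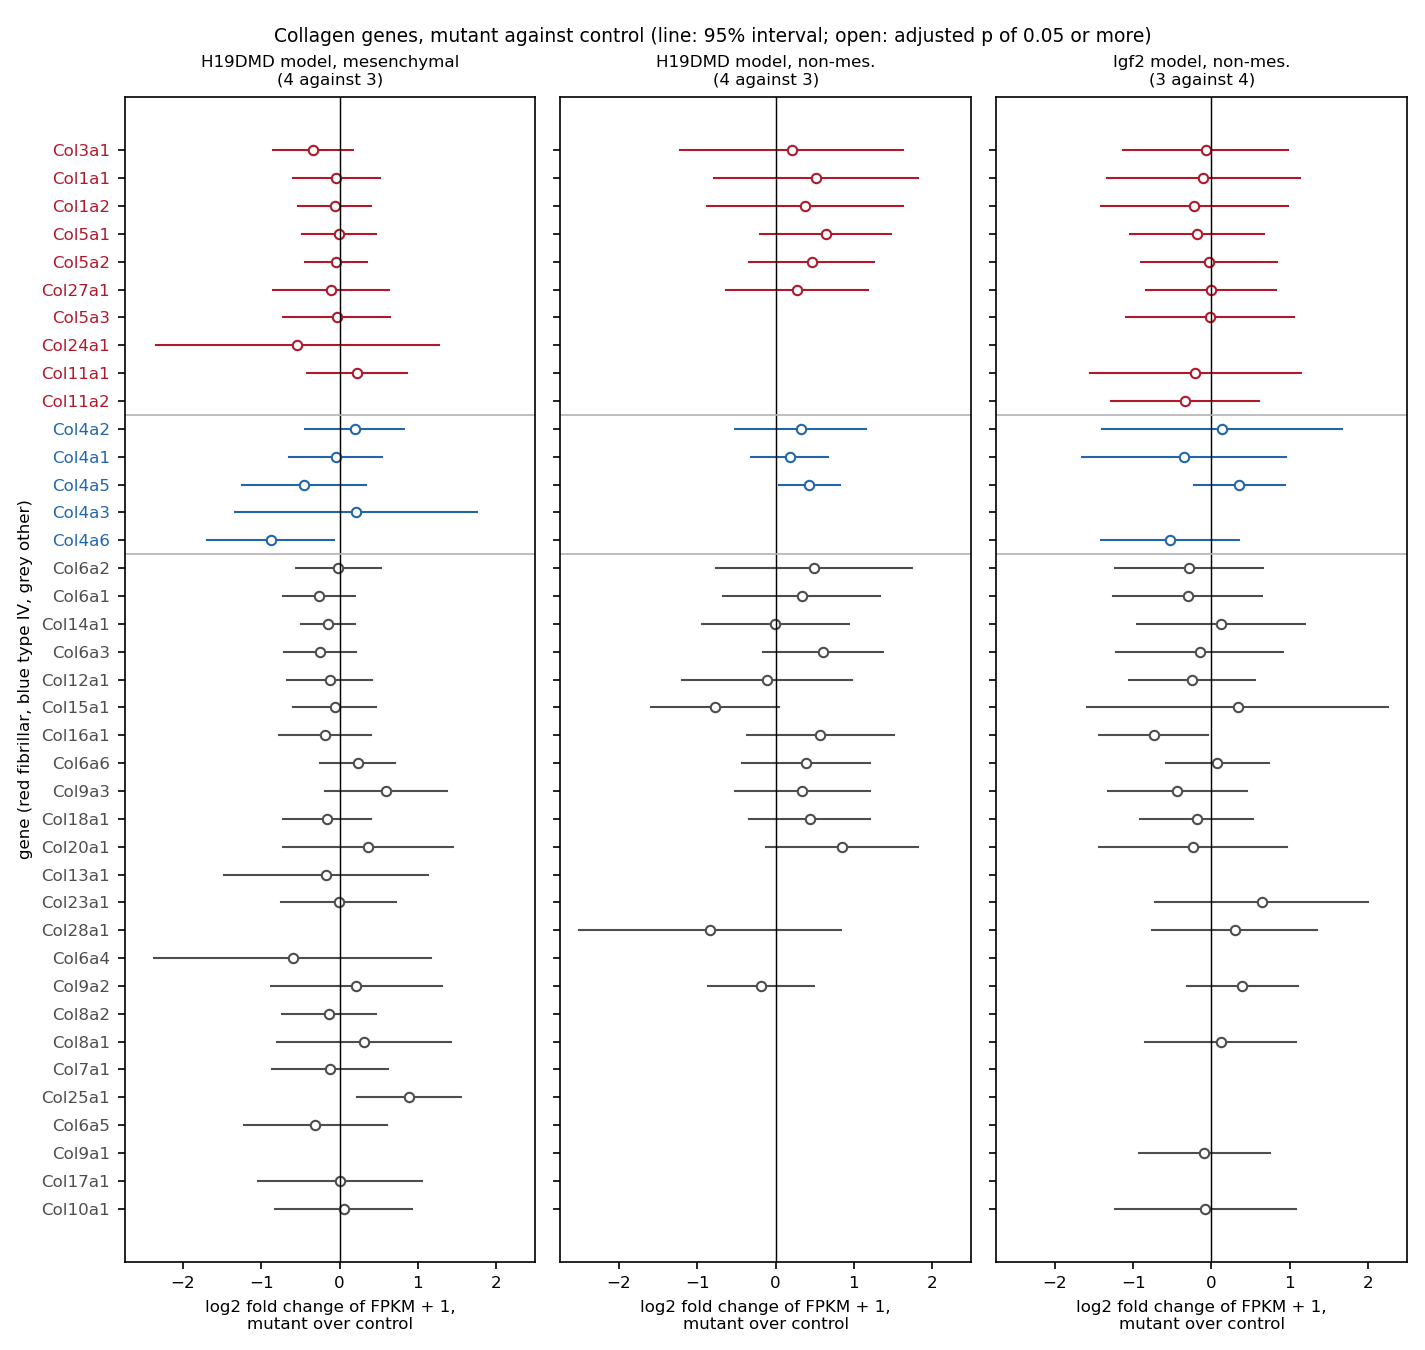
Log2 log2 fold change (mutant minus control, on log2(FPKM + 1)) of each collagen tested, with 95% intervals from limma, in mesenchymal and non-mesenchymal cells of the H19DMD model and in non-mesenchymal cells of the Igf2 model. All points are open, since no collagen had an adjusted p under 0.05, and the intervals of Col25a1 and Col4a6 in mesenchymal cells, Col4a5 in non-mesenchymal H19DMD cells and Col16a1 in the Igf2 model leave out 0.

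The second comparison concerns the YFP-negative fraction of the H19DMD model. None of 22 collagens tested was called (limma, adjusted p under 0.05), beside 0.0677% of 16239 genes. A single collagen had an unadjusted p under 0.05, beside 5.35% of genes. Of the 22, 17 were above 0, beside 56.1% of all genes, and the median was 0.36 beside 0.05. With median-ratio scaling the number above 0 was again 17, and all 6 fibrillar chains tested were above 0 under both scalings.

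The single member was Col4a5, higher in each of the 4 mutants than in any of the 3 controls, with a log2 fold change of 0.43 (0.04 to 0.82), an unadjusted p of 0.0338 and an adjusted p of 0.892 (limma). Its exact permutation p was 0.0286, and 3.47% of all genes were likewise higher without overlap. Of the fibrillar chains, Col1a1 was at 0.52 (-0.78 to 1.82), Col3a1 at 0.21 (-1.22 to 1.63) and Col5a1 at 0.64 (-0.19 to 1.48). Col4a1, Col6a1 and Col18a1 were at 0.18 (-0.31 to 0.67), 0.33 (-0.67 to 1.33) and 0.44 (-0.33 to 1.21). Col15a1 went the other way, at -0.77 (-1.6 to 0.05), with controls from 3.85 to 12.4 FPKM, mutants from 3.26 to 4.83 FPKM and an exact permutation p of 0.0857, and it was -1.18 without control 2 and -0.45 without control 3. The extremes of the other types were Col20a1 at 0.85 and Col28a1 at -0.83. Col28a1 had 0.383, 0.0916 and 6.8 FPKM in controls and 0.11 to 0.421 FPKM in mutants, with overlap, and without control 3 it was under the minimum for testing.

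Mutants 4 and 2 held the highest of the 7 values for 11 and 8 of the 22 collagens. The fibrillar chains summed to 62.6, 41.4 and 43.1 FPKM in controls 1 to 3 and 47, 103, 34.4 and 87.9 FPKM in mutants 1 to 4. The mesenchymal markers in the same libraries summed to 154, 184 and 153 FPKM and 154, 229.5, 150.3 and 202 FPKM. Vim made up 67.1 to 88% of these sums, and the other 9 markers summed to 50.6, 28.1 and 18.4 FPKM and 23.5, 69.3, 22.3 and 51.2 FPKM. The mutants with the highest fibrillar sums were those with the highest marker sums, with and without Vim, and Igf2 was also highest there, at 156.7 and 141 FPKM in mutants 2 and 4. Endocrine markers summed to 18331 to 27195 and 9131 to 18355 FPKM in controls and mutants, with 3 of 6 lower at an unadjusted p under 0.05, beside 5.35% of all genes in either direction. The insulin gene Ins1 stood at 5231, 7424 and 6775 FPKM and 4732, 3446, 3554 and 2331 FPKM, lower in every mutant, and was not called (-0.91, limma, adjusted p = 0.892). Erythroid markers summed to 15.4 to 63.1 and 32.3 to 194 FPKM, with 2 of 4 higher at that threshold, and leukocyte markers to 306 to 516 and 312 to 537 FPKM, with 2 of 6 lower. The part of mesenchymal, endocrine, erythroid or leukocyte RNA in the collagen values was not tested.

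The third comparison concerns the YFP-negative fraction of the Igf2 deletion model. None of 30 collagens tested was called (limma, adjusted p under 0.05), beside 0.0631% of 17441 genes. A single collagen had an unadjusted p under 0.05, beside 5.28% of genes. Of the 30, 9 were above 0 and 21 below it with the deposited scaling, beside 47.1% of all genes above 0. The median was -0.10, beside -0.03 over all genes. With median-ratio scaling 10 were above 0 and 20 below it. All 9 fibrillar chains were below 0 with the deposited scaling and 8 with median-ratio scaling.

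Col1a1 stood at 12.3, 37.3, 29.2 and 36.6 FPKM in controls and 33.4, 11.6 and 38.1 FPKM in mutants. Col1a2 had 11.2, 29.4, 30.7 and 30.2 FPKM and 27.6, 9.44 and 30.9 FPKM, and Col3a1 12.7, 29.8, 34.7 and 37.8 FPKM and 32.9, 14.9 and 32.5 FPKM. Control 1 and mutant 2 were the lowest libraries of their groups for all 3 genes, and the groups overlapped. Fold changes were -0.10 (-1.34 to 1.13) for Col1a1 and -0.07 (-1.12 to 0.97) for Col3a1. For Col5a1 the values were 4.17, 4.86, 7.08 and 5.85 FPKM in controls and 5.11, 2.32 and 7.79 FPKM in mutants, a log2 fold change of -0.18 (-1.04 to 0.67). Col5a2 had 1.64, 2.75, 4.1 and 3.31 FPKM and 3.32, 1.43 and 4.07 FPKM, again with overlap and with mutant 2 lowest. The largest change of a fibrillar chain was that of Col11a2, at -0.34, with means of 1.65 ± 0.732 and 1.09 ± 0.571 FPKM (SD), and it was -0.09 without mutant 1 and -0.56 without control 4.

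For type IV, Col4a1 stood at 13.4, 40.01, 17.7 and 22.6 FPKM in controls and 14.5, 8.17 and 38.1 FPKM in mutants. Col4a2 had 7.62, 41.5, 10.9 and 16 FPKM and 14.6, 9.0 and 37.4 FPKM. Control 2 and mutant 3 held the highest values of both genes, and the groups overlapped, with -0.35 (-1.65 to 0.95) for Col4a1. Col4a5 had 8.27, 9.63, 7.72 and 10.3 FPKM in controls and 7.9, 14.3 and 14.1 FPKM in mutants. Col4a6 had 1.82, 2.06, 1.33 and 2.03 FPKM and 1.47, 0.229 and 1.39 FPKM. They were the class extremes, at 0.36 (-0.23 to 0.94) and -0.53 (-1.41 to 0.35), and both overlapped.

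Col6a1 stood at 2.75, 6.77, 6.78 and 4.71 FPKM in controls and 2.14, 3.68 and 6.77 FPKM in mutants, with a log2 fold change of -0.31 (-1.26 to 0.65). Col6a2 had 4.04, 7.13, 6.15 and 8.45 FPKM and 5.87, 2.31 and 8.23 FPKM, and Col6a3 2.45, 5.71, 3.69 and 4.18 FPKM and 4.42, 1.2 and 6.12 FPKM. The type VI groups overlapped for all 3 chains. Col15a1 had 4.04, 30.2, 10.2 and 15.7 FPKM and 19.6, 4.5 and 38.8 FPKM, with control 2 and mutant 3 highest, and a log2 fold change of 0.34 (-1.59 to 2.26). Col18a1 had 18.4, 13.9, 13.4 and 21.4 FPKM and 13.1, 9.9 and 22.5 FPKM, a log2 fold change of -0.19 (-0.91 to 0.53). Col17a1 had 0.654, 0.0975, 1.02 and 0.663 FPKM and 1.73, 1.74 and 0.47 FPKM and was not tested, and its groups overlapped. Col16a1 had the only unadjusted p under 0.05, with means of 21.9 ± 1.91 FPKM in controls and 13.6 ± 6.21 FPKM in mutants (SD). Its log2 fold change was -0.74 (-1.44 to -0.04), with an unadjusted p of 0.041 and an adjusted p of 0.919 (limma) and an exact permutation p of 0.0571. The ranges of 19.96 to 24.3 FPKM in controls and 7.76 to 20.1 FPKM in mutants overlapped. The highest value among the other types was 0.64 for Col23a1 (-0.71 to 2.0), which was 0.30 without mutant 1, 0.43 without control 3 and 1.07 without control 2.

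Group means describe other collagens of the Igf2 model. Col12a1 and Col14a1 had 8.46 and 6.64 FPKM in controls and 7.3 and 6.95 FPKM in mutants, and Col27a1 had 16.4 and 17.2 FPKM. Col20a1 had 5.46 and 5.32 FPKM, Col9a2 3.0 and 4.46 FPKM, and Col6a6 2.12 and 2.23 FPKM. Col5a3, Col11a1, Col8a1, Col9a1, Col10a1, Col22a1, Col23a1 and Col28a1 lay between 0.862 and 2.23 FPKM in mean. Col24a1 had 0.805, 0.139, 0.13 and 0 FPKM in controls and 0.0515, 0 and 3.13 FPKM in mutants, and Col6a4 0.0205, 0.0689, 0.0401 and 0.0669 FPKM and 0.0694, 0.0777 and 3.52 FPKM. Mutant 3 alone was above 1 FPKM for both genes.

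Collagen sums and markers of other cell types are given here library by library. Fibrillar sums were 61.2, 128, 128 and 137 FPKM in controls 1 to 4 and 133, 51.8 and 138 FPKM in mutants 1 to 3. The 10 mesenchymal markers in the same libraries summed to 190.2, 284, 337 and 279 FPKM and 244, 194 and 358 FPKM, lowest in the 2 libraries with the lowest fibrillar sums. Without Vim, which made up 56.2 to 80.1% of these sums, they were 48.0, 78.5, 101 and 84.2 FPKM and 107, 42.2 and 71.3 FPKM, again lowest in those 2 libraries. Type IV sums were 31.3, 94.7, 38.8 and 51.8 FPKM and 40.3, 31.9 and 91.4 FPKM. The 7 endothelial markers summed to 15.3, 262, 127 and 111 FPKM and 88.1, 50.1 and 266 FPKM, highest in control 2 and mutant 3, which also held the highest type IV sums. Egfl7 alone reached 151 FPKM among the controls and 158 FPKM among the mutants, most of these 2 highest sums. The match to type IV without Egfl7 was not tested. The 8 acinar markers summed to 29386 to 42447 FPKM in controls and 86148 to 98491 FPKM in mutants, with 7 of 8 higher in every mutant than in any control, beside 2.65% of all genes. The part of these markers in the collagen values was not tested.

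**Figure D5:**
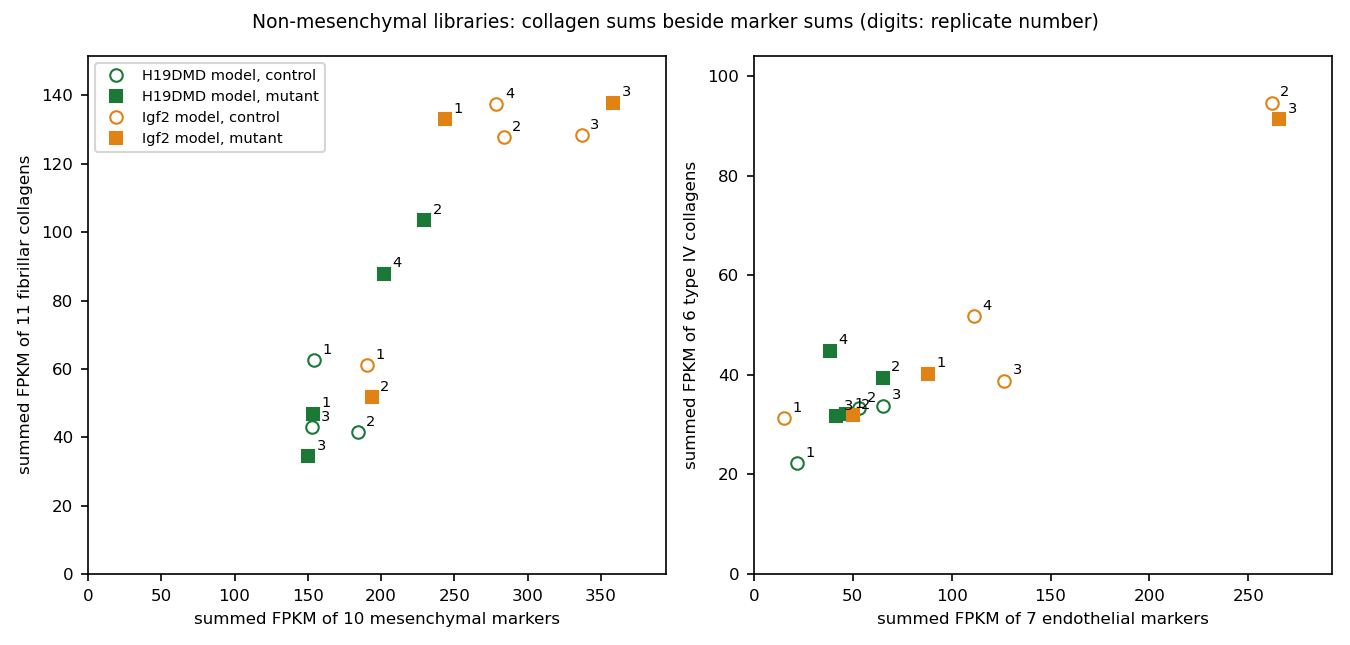
Summed FPKM of the 11 fibrillar collagens against that of 10 mesenchymal markers (left) and of the 6 type IV chains against that of 7 endothelial markers (right), one point for each of the 14 non-mesenchymal libraries by group. Control 2 and mutant 3 of the Igf2 model stand apart at the upper right of the type IV plot, at 262 and 266 FPKM of endothelial markers. Egfl7 alone gives 151 and 158 FPKM of these sums.

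Whether the H19DMD mutation changed collagen RNA differently in the 2 fractions was tested as an interaction over the 14 libraries of that model. None of 33 collagens tested was called (limma, adjusted p under 0.05), beside 0.0117% of 17105 genes, and 4 had an unadjusted p under 0.05, beside 6.35% of genes. These were Col4a6 at -1.36 (-2.25 to -0.48), Col4a5 at -0.88, Col6a3 at -0.85 and Col25a1 at 0.94, with adjusted p = 0.755 for each (limma). Of the 33, 6 were above 0 and 27 below it, beside 41.1% of all genes above 0, and all 9 fibrillar chains were below 0. These 9 chains were measured in the same libraries and are not independent. Non-mesenchymal mutants 2 and 4 held the highest fibrillar and mesenchymal marker sums of that fraction, as given above. The part of these 2 libraries in the interaction was not tested. The median was -0.39 over the collagens and -0.11 over all genes, and median-ratio scaling moved the latter to 0.00, the collagen median to -0.29 and left the 9 fibrillar chains below 0. Col1a1, Col3a1 and Col5a1 were at -0.56 (-1.93 to 0.81), -0.55 (-2.02 to 0.93) and -0.65 (-1.48 to 0.19). Col4a1, Col6a1, Col15a1 and Col18a1 were at -0.23, -0.60, 0.71 and -0.60, and the lowest fibrillar chain was Col24a1 at -0.70 (0.00 without mesenchymal control 3) and the highest type IV chain Col4a3 at 0.19.

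Chains that pair in a trimer or share a promoter region were set side by side as FPKM ratios. Col1a1 to Col1a2 was 0.967 ± 0.120 in mesenchymal controls and 0.979 ± 0.0788 in mesenchymal mutants (SD). Col6a1 to Col6a2 was 0.645 ± 0.00586 and 0.544 ± 0.0515, Col4a1 to Col4a2 was 1.22 ± 0.0878 and 1.03 ± 0.105, and Col4a5 to Col4a6 was 2.50 ± 0.516 and 4.88 ± 2.06. These last 3 ratios did not overlap between mesenchymal controls and mutants, though those of Col4a5 to Col4a6 met at 3.05. Over 18 exact permutation tests of ratios, 6 in each mutant comparison, the smallest p was 0.0571, or 0.343 after Benjamini-Hochberg adjustment, so none passed. In the Igf2 model, Col4a5 to Col4a6 was 5.02 ± 0.570 in controls and 26 ± 31.6 in mutants, where mutant 2, at 62.4, carried the mean. Col4a3 and Col4a4, head to head on chromosome 1, had means of 1.11 and 0.569 FPKM in mesenchymal controls. Col4a5 and Col4a6 start 1343 bases apart on opposite strands of chromosome X.

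Biosynthesis genes and receptors gave no call in any mutant comparison (limma, adjusted p under 0.05). Of the 33, 28 and 31 biosynthesis genes tested in mesenchymal H19DMD, non-mesenchymal H19DMD and non-mesenchymal Igf2 comparisons, none had an adjusted p under 0.05 (limma), and 2, 1 and 1 had an unadjusted p under 0.05, beside 4.76%, 5.35% and 5.28% of all genes. Serpinh1 stood at 112, 104, 53.6 and 90.2 FPKM in mesenchymal mutants and 17.1, 24.8, 13.6 and 31.3 FPKM in non-mesenchymal mutants of the H19DMD model. Igf2-model libraries had 24.6, 28.9, 27.1 and 35.1 FPKM in controls and 28.8, 16.8 and 34.6 FPKM in mutants, and mutants overlapped controls in all 3 comparisons. P4ha1 had 13.4, 11.2, 14.5 and 10.8 FPKM in mesenchymal mutants, 2.38, 2.88, 1.8 and 3.03 FPKM in non-mesenchymal H19DMD mutants, 5.01, 5.1, 6.1 and 3.7 FPKM in Igf2 controls and 6.24, 3.37 and 4.99 FPKM in Igf2 mutants. Plod2 had, in that order, 130.3, 138, 148 and 103 FPKM, 25.6, 32.5, 26.7 and 34 FPKM, 39.2, 27, 29.5 and 16.6 FPKM and 27.2, 17.7 and 24.6 FPKM. The hydroxylases overlapped their controls in each comparison. Bmp1 had 33.2, 44.2, 23.8 and 67.7 FPKM, 6.04, 11.7, 4.51 and 10.2 FPKM, 8.23, 9.56, 7.33 and 10.3 FPKM and 8.37, 5.34 and 12.6 FPKM. Pcolce had 167, 169.9, 144 and 151 FPKM, 2.43, 7.18, 5.34 and 7.22 FPKM, 5.4, 6.32, 8.02 and 14.1 FPKM and 15.6, 5.77 and 12.3 FPKM. Lox had 76.6, 70.8, 79 and 60.9 FPKM, 0.781, 1.19, 0.96 and 0.884 FPKM, 1.0, 1.86, 2.2 and 2.17 FPKM and 0.828, 0.605 and 1.97 FPKM, and all of these overlapped their controls.

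Of the 8, 5 and 6 receptors tested in these comparisons, none was called (limma), and 0, 0 and 1 had an unadjusted p under 0.05, beside 4.76%, 5.35% and 5.28% of all genes. Ddr1 stood at 23.6, 20.4, 16.8 and 18.3 FPKM in controls and 12.5, 9.24 and 21.2 FPKM in mutants of the Igf2 model, and Ddr2 at 0.624, 1.11, 0.901 and 0.892 FPKM and 1.56, 0.631 and 1.24 FPKM, both with overlap. Lair1 had the largest log2 fold change of the list there, with 2.44, 5.19, 3.18 and 3.16 FPKM in controls and 11.1, 13.6 and 13.7 FPKM in mutants, which did not overlap. Its log2 fold change was 1.65 (1.06 to 2.24) and was not called (limma, adjusted p = 0.295). The 6 leukocyte markers were all above 0 in the same comparison, with sums of 504 to 792 FPKM in controls and 716 to 972 FPKM in mutants, and their part in the Lair1 value was not tested.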

How the data were processed

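RNA-seq values of 21 libraries (14 of the H19DMD model and 7 of the Igf2 model) were taken from 2 tables of FPKM per gene. The authors deposited FPKM made with TopHat2 2.0.8 and Cufflinks 2.2.1 on GRCm38, per the submitters' processing notes, from single-end reads of amplified total RNA, per the labels' protocols. How fragments were normalized across libraries and whether strand was used is not given in the sources used here. FPKM is relative to each library's total, so a value moves when a few features take more of it, and the 3 highest features held 38.2 to 82.5% of the FPKM. Another 8 columns of per-sample values were not used.

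A gene entered a comparison if its FPKM averaged 1 or more there, and was tested on log2(FPKM + 1) with limma 3.58.1 in R 4.3.3 (empirical Bayes with trend, Benjamini-Hochberg adjustment over all genes tested, threshold 0.05), with the compared groups alone in the fit. Exact permutation tests over libraries were two-sided. The fits were tested on simulated data. Alternatives were median-ratio scaling, a pseudocount of 0.1, no filter, features of at least 1000 bases, all groups in one fit, the replicate number as a block, and leaving out each library.

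The collagens and the lists were chosen with earlier results of these data known. Values in every library are given for the main fibrillar, type IV, VI, XV, XVII and XVIII chains and 8 modifying enzymes and receptors, group means for most other members of at least 1 FPKM, and tests for called members and the extremes of each class. Promoter windows came from RefSeq and coordinates from GENCODE M21. The tables were normalized separately, so levels set across them are descriptions.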

Additional observations from a re-analysis of the deposited data

Results flagged for a closer look

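In groups of 4 libraries, a library was singled out when its gap to the nearest other was larger than Dixon's 95% critical share of the group's range, a limit that chance passes in about 5% of groups. Of 87 groups checked 6 passed, against 4.35 for chance alone. Non-mesenchymal control 1 of the Igf2 model was far below the other controls for Col1a2, at 11.2 FPKM, and for the fibrillar sum, at 61.2 FPKM, and far above them for Col20a1, at 8.37 FPKM. Control 2 of that group was far above the others for Col23a1, at 3.19 FPKM. In non-mesenchymal H19DMD mutants, mutant 1 was far above the others for Col4a3, at 0.540 FPKM, and mutant 3 for Col6a4, at 0.49 FPKM, both levels below 1 FPKM.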

How the results depend on the processing

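Under every alternative run, no collagen was called in a mutant comparison or in the interaction, and the number of collagens higher in the mesenchymal fraction stayed within 19 to 22 in controls and 22 to 24 in mutants when 1 library was left out. Log2 values of named collagens that turned sign were as follows. In mesenchymal H19DMD mutants, median-ratio scaling gave Col1a1 0.037, Col5a1 0.073, Col4a1 0.029 and Col15a1 0.015, and a pseudocount of 0.1 gave Col4a3 -0.022 (interaction -0.21). Median-ratio scaling gave Col18a1 -0.033 between the fractions of controls. Leaving out 1 library gave, in mesenchymal H19DMD cells, Col1a1 -0.19 to 0.11, Col5a1 -0.094 to 0.14, Col4a1 -0.16 to 0.15, Col15a1 -0.25 to 0.045 and Col24a1 -1.49 to 0.16. In non-mesenchymal H19DMD cells it gave Col3a1 -0.18 to 0.65, between the fractions of controls Col18a1 -0.12 to 0.22, and in the interaction Col24a1 -1.66 to 0.0013. For the Igf2 model it gave Col1a1 -0.45 to 0.41, Col3a1 -0.41 to 0.29, Col5a1 -0.51 to 0.20, Col4a1 -0.92 to 0.13, Col6a1 -0.64 to 0.0084, Col15a1 -0.30 to 1.13 and Col18a1 -0.50 to 0.055.

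Deviations of libraries that share a replicate number correlated at -0.051 to 0.067, below the 0.1 set for pairing, so the numbers were not taken to pair them. Between the fractions all 7 correlations were above 0 and 5 of 7 libraries correlated best with their own number, a hint from the data and not from the labels. With the replicate block, Col15a1 was 0.044 in mesenchymal H19DMD mutants, Col3a1 -0.011 in non-mesenchymal ones, and Col1a1 0.045 and Col3a1 0.089 in the Igf2 model. The block also left 1 collagen lower in mesenchymal mutants instead of 2, since Col4a5 was not called, 0 receptors lower in controls instead of 1 (Lair1), and 2 and 1 biosynthesis genes lower in controls and mutants instead of 1 and 2, since Ctage5 was called in controls and not in mutants. These 2 biosynthesis counts, and the same shift of Ctage5, were also found with median-ratio scaling and with all groups in one fit. Leaving out 1 library gave 1 to 2 collagens lower in mutants, 0 to 1 receptors lower in controls, 1 to 2 receptors lower in mutants and 1 to 2 biosynthesis genes lower in mutants. The cause of these changes was not tested.

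Counts over all genes moved more. In mesenchymal H19DMD mutants 4 genes were higher and 7 lower, against 2 and 3 with all groups in one fit and 2 and 5 with the replicate block. In non-mesenchymal ones 1 and 10 became 0 and 1, 1 and 4, and 0 and 8 for features of at least 1000 bases. For the Igf2 model 8 and 3 became 1 and 1 with the block, and in the interaction 1 and 1 became 4 and 2 with a pseudocount of 0.1 and 5 and 1 without a filter. Median-ratio scaling turned the split between fractions of controls from 2067 higher and 1718 lower to 1898 and 2032. Leaving out control 2 and mutant 3 of the Igf2 model, chosen after seeing the data, kept the direction of all 12 named collagens, none of which was called in either fit. This does not show stable directions, since leaving out a single library turned the sign of Col1a1, Col3a1, Col5a1, Col4a1, Col6a1, Col15a1 and Col18a1 there. FPKM give no depth, so counting error could not be set against these spreads.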
